A study of Homo sapiens with 12 samples.

Results

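BKM120 (buparlisib), an inhibitor of the class I phosphoinositide 3-kinases (PI3K), was compared with its vehicle DMSO in OPM2 cells, an established human multiple myeloma line. The comparison used the 3 BKM120 libraries and the 3 DMSO libraries of a series of 12, chosen by their labels: 6 of 12 libraries, with 13180 of 63152 identifiers in the count table expressed highly enough to be tested. BKM120 was given at 1 µM, and every library was collected after 2 hours of treatment in biological triplicate. The other libraries came from JQ1 at 250 nM, a BET bromodomain inhibitor, and from 18DS at 250 nM, which the series describes as a chimeric inhibitor of both PI3K and BET proteins. RNA was read by QuantSeq, a method that sequences a short tag near the 3′ end of polyadenylated transcripts, so a count follows transcript number rather than length. All groups are 1 cell line, and the labels do not say whether the 3 cultures of a group were grown on different days.

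Class I PI3K enzymes sit below growth factor and cytokine receptors and make the membrane lipid that recruits the kinase AKT. Active AKT phosphorylates the forkhead transcription factors FOXO1, FOXO3 and FOXO4, which then leave the nucleus, and it activates mTORC1, a kinase complex that promotes ribosome production, lipid synthesis through the SREBP factors and glycolysis. When PI3K is blocked, FOXO factors return to the nucleus, where they are known to activate receptor, adaptor, cell-cycle and cell-death genes.

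The 6 libraries held 5563788 to 6883854 counts. Plasma cell and myeloma line genes were high in each of them. JCHAIN was at 2901 to 3072 CPM (here a count relative to its TMM-scaled library total). XBP1 was at 699 to 831 CPM, SDC1 at 246 to 326 CPM and the myeloma line gene FGFR3 at 723 to 892 CPM. CD38 was at only 3.70 to 6.48 CPM. None of 14 T and NK cell markers, 1 of 13 myeloid markers (LYZ) and none of 15 epithelial, endothelial and fibroblast markers passed the expression filter. Their summed levels were 0.303 to 1.18 CPM in DMSO and 0.162 to 1.98 CPM in BKM120 for the T and NK list, 2.31 to 4.71 and 2.26 to 6.10 CPM for the myeloid list, and 1.82 to 2.69 and 1.26 to 3.63 CPM for the epithelial, endothelial and fibroblast list. Mitochondrially encoded transcripts took 6.56% to 6.97% of counts in DMSO and 6.99% to 7.65% in BKM120, with no overlap. One identifier without a symbol, ENSG00000272060, took 2.80% to 2.94% of counts in DMSO and 3.81% to 4.09% in BKM120. The part of these shares in the gene results was not tested. The first principal component of the 6 libraries held 38.7% of the variance and separated the groups, with DMSO at -25.1 to -16.1 and BKM120 at 9.12 to 27.8.

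Within 2 hours of BKM120, 536 genes were higher and 546 lower than in DMSO at an adjusted p under 0.05 (edgeR quasi-likelihood test, Benjamini-Hochberg adjustment over all tested genes), which is 4.07% and 4.14% of the genes tested and 8.21% in all. Of these, 88 of the risen and 41 of the fallen genes changed by at least 2-fold, and the median log2 fold change was 0.545 among risen and -0.503 among fallen genes. The share called grew with expression, from 2.75% of the 4394 genes with the lowest mean levels, where the median SE of a log2 fold change was 0.337, to 13.7% of the 4393 with the highest, where it was 0.0987. Of those 4393, 270 rose and 334 fell. The shares of all tested genes set beside list counts below do not take level into account. In bulk RNA, fewer cells of a kind and less RNA per cell cannot be told apart. The split between directions depended on scaling, with 439 higher and 809 lower by library totals alone and 734 higher and 431 lower by upper-quartile factors. Calls in all fell to 532 with DMSO replicate 1 left out, 552 with BKM120 replicate 1 and 482 with BKM120 replicate 3 left out. Risen genes numbered 246, 356, 267 and 223 without DMSO replicate 1, DMSO replicate 2, BKM120 replicate 1 and BKM120 replicate 3. Fallen genes numbered 286, 285 and 259 without DMSO replicate 1, BKM120 replicate 1 and BKM120 replicate 3, and 833 without 18DS replicate 2, a library of neither group, which enters the expression filter (13513 genes were tested without it) and the shared estimate of spread.

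**Figure D1:**
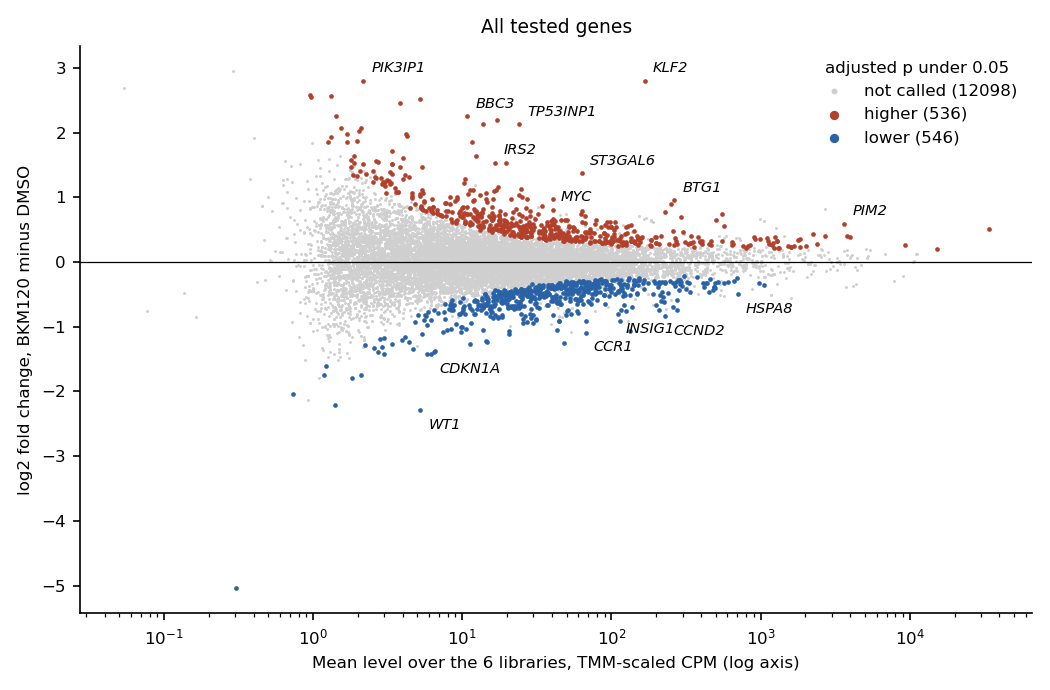
Log2 fold change of BKM120 over DMSO (vertical axis) against the mean CPM of the 6 libraries (horizontal log axis) for each of 13180 tested genes, with the 536 higher and 546 lower genes in colour. KLF2 lies at a log2 fold change of 2.80 and WT1 at -2.29, while the lowest value of a called gene is -5.03. The share of coloured genes grows from 2.75% of the lowest 4394 to 13.7% of the highest 4393.

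Among genes averaging 5 CPM or more with groups apart, the largest rise was in KLF2 (identifier ENSG00000127528), a Krüppel-like transcription factor that keeps lymphocytes quiescent and governs their trafficking. It was at 37.7, 44.0 and 44.0 CPM in the 3 DMSO libraries and at 313, 296 and 266 CPM in the 3 BKM120 libraries, a 6.98-fold rise (log2 fold change 2.80 ± 0.16 (SE), adjusted p = 2.64e-07). Every BKM120 library stood far above every DMSO library. BBC3 (ENSG00000105327), which encodes the BH3-only cell-death protein PUMA, was at 2.80, 4.19 and 4.33 CPM in DMSO and 17.7, 19.8 and 16.0 CPM in BKM120, a 4.75-fold rise (log2 fold change 2.25 ± 0.21 (SE), adjusted p = 1.94e-09). TP53INP1 (ENSG00000164938), a stress-induced protein with roles in autophagy and cell death, was at 10.3, 7.73 and 8.66 CPM in DMSO and 35.9, 42.1 and 39.5 CPM in BKM120, a 4.38-fold rise (log2 fold change 2.13 ± 0.16 (SE), adjusted p = 8.62e-12). IRS2 (ENSG00000185950), the adaptor that carries insulin and IGF1 receptor signals to PI3K, was at 8.84, 9.82 and 6.83 CPM in DMSO and 25.1, 19.5 and 29.8 CPM in BKM120, a 2.89-fold rise (log2 fold change 1.53 ± 0.17 (SE), adjusted p = 1.14e-07). None of these 4 genes had overlapping groups, and each kept its call under every alternative analysis. Absence of overlap is given here and below as a description of the values, not as support beyond the call. Genes that did not pass, such as FGFR3 and CDKN1B, could also be free of overlap.

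Of the 12 largest rises (in genes averaging 5 CPM or more, groups apart), the others were CCNG2, LINC00861, DEPP1, YPEL3, HBP1, ST3GAL6, BEST3 and ZDBF2. CCNG2, an atypical cyclin tied to cell-cycle arrest, was at 1.18, 1.61 and 1.83 CPM in DMSO and 8.85, 9.45 and 8.09 CPM in BKM120 (log2 fold change 2.51 ± 0.33 (SE), adjusted p = 2.72e-06). DEPP1, a FOXO-induced gene with roles in autophagy and redox balance, was at 4.86, 3.70 and 6.83 CPM in DMSO and 18.7, 24.7 and 23.7 CPM in BKM120 (log2 fold change 2.12 ± 0.19 (SE), adjusted p = 1.31e-09). HBP1, an HMG-box repressor of cell-cycle genes, was at 9.72, 9.99 and 10.5 CPM in DMSO and 30.1, 28.5 and 28.2 CPM in BKM120 (log2 fold change 1.52 ± 0.15 (SE), adjusted p = 5.23e-09). In both groups the 3 HBP1 values lay close together and far from those of the other group. YPEL3, a growth-suppressing protein, rose 3.61-fold (log2 fold change 1.85 ± 0.19 (SE), adjusted p = 2.52e-08). ST3GAL6, a sialyltransferase that caps glycans used in selectin binding, was at 34.2, 36.7 and 35.3 CPM in DMSO and 93.7, 88.1 and 92.5 CPM in BKM120 (log2 fold change 1.37 ± 0.092 (SE), adjusted p = 1.07e-12). The long non-coding RNA LINC00861 rose 4.59-fold, BEST3, a bestrophin channel gene, 2.44-fold, and the imprinted gene ZDBF2 2.33-fold.

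**Figure D2:**
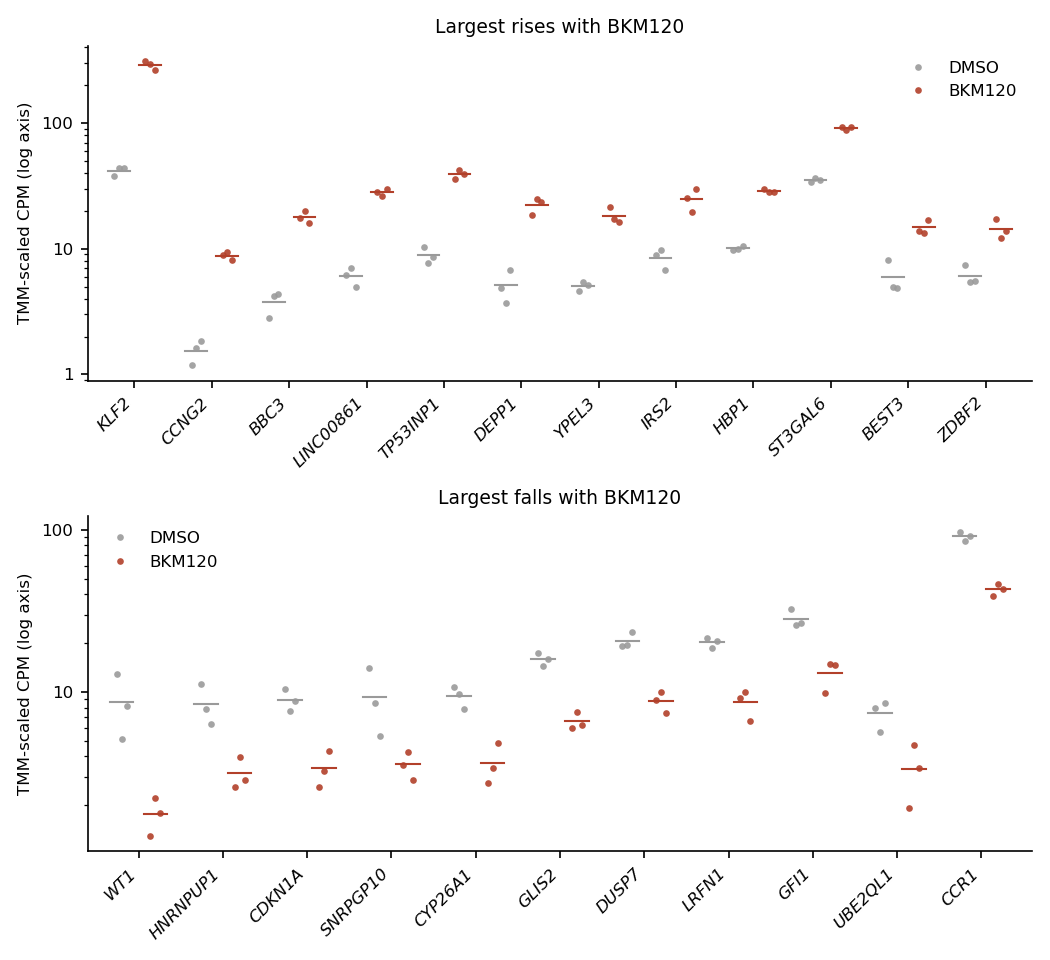
TMM-scaled CPM (log axis) of the 12 largest rises (top) and of 11 large falls chosen by the same rule (bottom), one point per library and a bar at the group mean, for DMSO (grey) and BKM120 (red). The DMSO and BKM120 points of a gene do not overlap in any of the 23, which the rule for choosing them required, and KLF2 moves from 37.7 to 44.0 CPM up to 266 to 313 CPM.

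Among receptors and adaptors that feed PI3K, 3 of 12 tested genes rose and none fell, with a median log2 fold change of 0.26 against 0.00019 over all tested genes. Beside IRS2, these were IL6ST and GAB1. IL6ST, the gp130 chain through which interleukin 6 signals in myeloma cells, was at 27.5, 28.2 and 26.0 CPM in DMSO and 53.6, 48.9 and 58.2 CPM in BKM120 (log2 fold change 0.97 ± 0.11 (SE), adjusted p = 8.96e-08). GAB1, a docking adaptor that binds the PI3K regulatory subunit, was at 11.05, 9.82 and 8.997 CPM in DMSO and 16.9, 15.1 and 21.4 CPM in BKM120 (log2 fold change 0.82 ± 0.17 (SE), adjusted p = 0.00204). The BKM120 libraries were the higher ones for both genes, without overlap. The growth factor receptor genes INSR, IGF1R and FGFR3 did not pass the test: INSR differed by -0.037 with a 95% interval of -0.26 to 0.19, IGF1R by 0.48 (adjusted p = 0.157) and FGFR3, the receptor that OPM2 overexpresses, by 0.21 (adjusted p = 0.0656). FGFR3 was at 723, 746 and 756 CPM in DMSO and 891, 787 and 892 CPM in BKM120, so its groups did not overlap, and it passed the test without BKM120 replicate 2 (log2 fold change 0.27, adjusted p = 0.0215) and without 18DS replicate 2 (0.21, adjusted p = 0.0322), and with upper-quartile factors.

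Of the enzyme's own subunits, 2 of 9 tested genes rose and none fell, beside 4.07% and 4.14% of all tested genes. PIK3CA, which encodes the catalytic subunit p110α, was at 6.92, 6.76 and 7.33 CPM in DMSO and 14.5, 11.96 and 17.6 CPM in BKM120, a 2.08-fold rise (log2 fold change 1.06 ± 0.20 (SE), adjusted p = 0.000684). PIK3C2A, a class II PI3K, was at 27.8, 36.2 and 43.3 CPM in DMSO and 58.8, 47.7 and 62.5 CPM in BKM120 (log2 fold change 0.66 ± 0.14 (SE), adjusted p = 0.00667). The p110β gene PIK3CB (-0.39, 95% interval -0.77 to -0.0088), the p110δ gene PIK3CD (0.040, -0.28 to 0.36) and the regulatory subunit gene PIK3R1 (-0.14, -0.43 to 0.15) did not pass. PIK3CG, the p110γ gene, had 44 counts over the 12 libraries and was not tested.

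Among phosphatases and inhibitors of the pathway, 3 of 15 tested genes rose and 1 fell, beside 4.07% and 4.14% of all tested genes. PIK3IP1, a membrane protein that binds and restrains p110, was at 0.589, 0 and 1.000 CPM in DMSO and 3.70, 3.25 and 4.49 CPM in BKM120 (log2 fold change 2.80 ± 0.53 (SE), adjusted p = 0.000690). It was nearly silent in DMSO, with no count in 1 library, so the size of its fold change rests on few counts. TSC22D3, the glucocorticoid-induced leucine zipper GILZ, was at 91.2, 91.5 and 78.8 CPM in DMSO and 127, 139.5 and 116 CPM in BKM120 (log2 fold change 0.55 ± 0.095 (SE), adjusted p = 0.000220). PPP2R5C, a regulatory subunit of the phosphatase PP2A, rose by a log2 fold change of 0.33 (adjusted p = 0.00484), a call lost without DMSO replicate 1 (0.26, adjusted p = 0.0572). TRIB3, a pseudokinase that binds AKT and an ATF4 target, fell from 5.597, 9.02 and 8.50 CPM to 3.70, 4.87 and 3.05 CPM (log2 fold change -0.97 ± 0.26 (SE), adjusted p = 0.0169). The TRIB3 call was lost without BKM120 replicates 1 or 3 or DMSO replicates 2 or 3 (from -0.93 to -0.83, adjusted p from 0.0674 to 0.106).

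In the list of AKT, PDK1, SGK and their substrates, 2 of 17 tested genes rose and none fell. Of all tested genes, 4.07% rose and 4.14% fell. FOXO1, one of the forkhead factors that AKT restrains, was at 36.1, 38.01 and 33.2 CPM in DMSO and 54.6, 43.9 and 44.2 CPM in BKM120 (log2 fold change 0.41 ± 0.11 (SE), adjusted p = 0.0205). AKT1S1, which encodes the mTORC1 inhibitor PRAS40, rose by a log2 fold change of 0.63 (adjusted p = 0.0165). Neither call held without DMSO replicate 1 (FOXO1 0.42, adjusted p = 0.0616, AKT1S1 0.55, adjusted p = 0.108). FOXO1 also missed without DMSO replicate 3 (0.36, adjusted p = 0.0971) and BKM120 replicate 1 (0.30, adjusted p = 0.191), and AKT1S1 without BKM120 replicate 3 (0.53, adjusted p = 0.118). FOXO3 was at 83.4, 78.8 and 78.3 CPM in DMSO and 104, 101 and 82.1 CPM in BKM120, and passed only without BKM120 replicate 3, its lowest BKM120 library (0.35, adjusted p = 0.0320), or with upper-quartile scaling. FOXO4 (0.33, 95% interval -0.21 to 0.87), AKT1 (0.047, -0.15 to 0.25) and AKT2 (0.077, -0.063 to 0.22) did not pass.

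A list of 65 genes known to be activated by FOXO factors held 46 tested members, of which 22 rose and 2 fell. Over all tested genes 4.07% rose and 4.14% fell. The FOXO list's median log2 fold change was 0.48. The list was drawn up with earlier results of these libraries known, so its count is a description and not independent evidence of its direction. Besides the genes already described, BTG1, an antiproliferative cofactor, was at 173, 183 and 186 CPM in DMSO and 356, 328 and 363 CPM in BKM120 (log2 fold change 0.95 ± 0.075 (SE), adjusted p = 4.12e-11). MXI1, a MAX partner that opposes MYC, was at 27.0, 22.1 and 23.5 CPM in DMSO and 44.0, 36.5 and 41.0 CPM in BKM120 (log2 fold change 0.74 ± 0.12 (SE), adjusted p = 7.29e-05). Both genes were higher in every BKM120 library. KLHL24, a ubiquitin ligase adaptor, rose by 2.45 (adjusted p = 8.40e-06) and FBXO32, the ubiquitin ligase atrogin-1, by 1.61 (adjusted p = 0.00273), both at low levels and both named after their values were seen. BCL6, a germinal centre repressor, was at 0.736, 0.966 and 1.000 CPM in DMSO and 1.29, 3.40 and 3.41 CPM in BKM120 (log2 fold change 1.57 ± 0.43 (SE), adjusted p = 0.0169), with its BKM120 replicate 1 far below the other two. The BCL6 call was lost without DMSO replicate 1 (1.44, adjusted p = 0.0891), BKM120 replicate 2 (1.35, adjusted p = 0.0691) or BKM120 replicate 3 (1.39, adjusted p = 0.0995), and with limma-voom (adjusted p = 0.0715). The members that fell were CDKN1A and ZFP36L2. CDKN1A, the CDK inhibitor p21 and also a p53 target, was at 10.5, 7.57 and 8.83 CPM in DMSO and 2.58, 3.25 and 4.31 CPM in BKM120, a 2.67-fold fall (log2 fold change -1.42 ± 0.23 (SE), adjusted p = 6.11e-05). Of the 19 list members not tested, TXNIP and S1PR1 were among those below the expression filter.

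Promoter windows of RefSeq (GRCh38.p14, 250 bases before to 50 bases after each start) were searched on both strands for the forkhead motif GTAAACA, which FOXO factors bind. Windows were found for 8838 tested genes, 328 of the 536 risen and 387 of the 546 fallen ones. Of genes that changed at least 2-fold, 43 of the 88 risen and 23 of the 41 fallen ones had a window. The motif was in 3.50% of all tested genes with a window, 10.4% of risen genes, 25.6% of genes that rose at least 2-fold (11 of 43), 3.62% of fallen genes and 8.70% of genes that fell at least 2-fold (2 of 23). By window rather than gene, the shares were 2.62%, 7.80%, 18.8%, 2.63% and 6.06%, against 3.42% of all windows in the table. Of the FOXO list, 8 of the 19 risen members with a window held the motif (BCL2L11, BTG1, DEPP1, HBP1, MXI1, PIK3CA, PIK3IP1 and YPEL3) and none of the 18 that did not pass the test. As that list was drawn up with earlier results of these libraries known, the contrast is a description only. The window of WT1, which fell, also held a match. Windows of KLF2, BBC3 and IRS2 held no match, which says only that these letters are not in this stretch. The sequences below show 7 matches in risen genes, 5′ to 3′ on the gene's strand with the motif in capitals on whichever strand it lies; the genes other than PIK3IP1 were chosen after their values were seen. They lie at chr10:44978935-44979034 on the minus strand (DEPP1), chr7:107168785-107168884 on the plus strand (HBP1), chr3:179148163-179148262 on the plus strand (PIK3CA), chr12:92145997-92146096 on the minus strand (BTG1), chr2:111120664-111120763 on the plus strand (BCL2L11), chr16:30096195-30096224 on the minus strand (YPEL3) and chr22:31292454-31292483 on the minus strand (PIK3IP1). The motif starts 180, 173, 149, 209 and 223 bases before the start in the first 5, and in YPEL3 and PIK3IP1 it lies after the start, so only a short stretch is shown.
DEPP1: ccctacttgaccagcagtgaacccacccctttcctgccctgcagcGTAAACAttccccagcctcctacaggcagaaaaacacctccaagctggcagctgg
HBP1: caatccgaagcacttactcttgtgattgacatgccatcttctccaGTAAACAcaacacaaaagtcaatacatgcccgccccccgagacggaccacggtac
PIK3CA: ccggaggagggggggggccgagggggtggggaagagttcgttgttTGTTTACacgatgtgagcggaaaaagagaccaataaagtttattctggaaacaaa
BTG1: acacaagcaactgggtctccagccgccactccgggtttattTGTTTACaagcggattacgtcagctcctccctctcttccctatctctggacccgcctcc
BCL2L11: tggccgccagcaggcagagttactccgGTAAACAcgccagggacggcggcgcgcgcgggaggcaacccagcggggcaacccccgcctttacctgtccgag
YPEL3: ctgggctcggtGTAAACAagtccaggcgcc
PIK3IP1: taaagagaggcTGTTTACcagaacagcata

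In the BCL2 family of cell-death regulators, 4 of 12 tested members rose and none fell, beside 4.07% and 4.14% of all tested genes. Beside BBC3, the BH3-only gene BCL2L11 (BIM) was at 27.2, 29.5 and 32.7 CPM in DMSO and 44.6, 45.3 and 42.2 CPM in BKM120 (log2 fold change 0.57 ± 0.11 (SE), adjusted p = 0.000835). PMAIP1 (NOXA), another BH3-only gene, was at 13.1, 11.3 and 12.2 CPM in DMSO and 16.9, 18.9 and 23.9 CPM in BKM120 (log2 fold change 0.70 ± 0.15 (SE), adjusted p = 0.00218). Each rose without overlap. MCL1, a survival factor of myeloma cells, was at 361, 319 and 311 CPM in DMSO and 399.9, 374 and 391 CPM in BKM120, a small rise (log2 fold change 0.23 ± 0.072 (SE), adjusted p = 0.0386). The MCL1 call was kept under 13 of 23 alternatives. It was lost without 18DS replicate 3 or BKM120 replicates 1 or 3 or DMSO replicates 2 or 3 or JQ1 replicates 2 or 3 (from 0.19 to 0.23, adjusted p from 0.0514 to 0.164), and with the 6 libraries alone, library totals or no expression filter (adjusted p from 0.0501 to 0.0783). BCL2 itself differed by 0.048 (adjusted p = 0.903) and BCL2L1 by 0.37 (adjusted p = 0.641), and neither passed.

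Among 24 tested p53 target genes 6 rose and 3 fell, beside 4.07% and 4.14% of all tested genes. BBC3, TP53INP1, BTG2, SESN1, GADD45A and RPS27L rose, and all but RPS27L are also on the FOXO list. AEN, an apoptosis nuclease induced by p53, was at 53.9, 60.1 and 60.0 CPM in DMSO and 25.4, 36.6 and 29.6 CPM in BKM120, a 1.89-fold fall (log2 fold change -0.92 ± 0.12 (SE), adjusted p = 1.44e-06). TRIAP1, a small p53-regulated survival protein, fell by 0.34 on the log2 scale (adjusted p = 0.00420), and CDKN1A fell as given above. MDM2, the p53 ligase, differed by 0.072 (adjusted p = 0.747). Without BKM120 replicate 3 the number of risen members was 3.

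CCND2, a D cyclin, was at 344, 279 and 256 CPM in DMSO and 151, 189.7 and 152 CPM in BKM120, a 1.78-fold fall (log2 fold change -0.84 ± 0.099 (SE), adjusted p = 2.79e-06). CCNE1, the E cyclin that drives S phase entry, was at 20.9, 17.7 and 19.7 CPM in DMSO and 12.9, 11.2 and 11.7 CPM in BKM120 (log2 fold change -0.71 ± 0.15 (SE), adjusted p = 0.00178). The lowest DMSO library stood above the highest BKM120 library for both. With CDKN1A, 3 of 16 tested cyclins and CDK inhibitors fell and 1 rose, beside 4.14% and 4.07% of all tested genes. The risen gene, CDKN2A, changed little (log2 fold change 0.26 ± 0.085 (SE), adjusted p = 0.0480) and kept its call under 6 of 23 alternatives. CDKN2A missed without 18DS replicate 3 or BKM120 replicates 1 or 3 or DMSO replicates 1 or 2 or JQ1 replicates 1, 2 or 3 (from 0.16 to 0.31, adjusted p from 0.0527 to 0.331), and with the 6 libraries alone, DESeq2, DESeq2 size factors, a non-robust dispersion, library totals, limma-voom, no expression filter or thinned counts (adjusted p from 0.0506 to 0.0783). CDKN1B, the FOXO-regulated CDK inhibitor p27, was at 75.1, 68.3 and 70.8 CPM in DMSO and 82.8, 92.1 and 86.3 CPM in BKM120, with no overlap and an adjusted p of 0.0502, and it passed without 18DS replicate 1 (0.28, adjusted p = 0.0422) or without 18DS replicate 2 (0.28, adjusted p = 0.0209), with upper-quartile factors and from the 6 libraries alone. CCND3, a D cyclin gene at lower levels than CCND2, differed by -0.22 (adjusted p = 0.398) and did not pass. CCND1 had 22 counts over the 12 libraries and was not tested. In later phases, 6 of 57 G1/S and replication genes rose and 4 fell, with a median of 0.0044, and 4 of 73 mitotic genes rose and none fell, with a median of 0.072. Against the 4.07% of all tested genes that rose, the mitotic share is near the background and is no result about mitotic genes. Dropping DMSO replicate 1, DMSO replicate 2, BKM120 replicate 1 or BKM120 replicate 3 left 3, 3, 3 and 1 risen G1/S genes and 1, 4, 2 and 1 fallen ones; 7 fell once 18DS replicate 2 was dropped, or with library totals. Risen mitotic genes numbered 2 without BKM120 replicate 3 and 7 without 18DS replicate 2.

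In the mTOR list, 4 of 33 tested genes rose and 1 fell, beside 4.07% and 4.14% of all tested genes. RICTOR, the subunit that defines mTORC2, the complex that phosphorylates AKT, was at 16.8, 17.7 and 15.3 CPM in DMSO and 31.4, 29.4 and 27.5 CPM in BKM120 (log2 fold change 0.82 ± 0.13 (SE), adjusted p = 4.98e-05). ULK1, the kinase that starts autophagy and is restrained by mTORC1, was at 13.8, 19.2 and 17.2 CPM in DMSO and 27.4, 26.3 and 26.4 CPM in BKM120 (log2 fold change 0.68 ± 0.14 (SE), adjusted p = 0.00114). Both rose without overlap. FLCN, which with its partners controls the lysosomal Rag GTPases, was at 33.6, 33.5 and 34.5 CPM in DMSO and 24.6, 25.8 and 20.8 CPM in BKM120 (log2 fold change -0.50 ± 0.13 (SE), adjusted p = 0.00862), a fall that missed without BKM120 replicate 3 (-0.42, adjusted p = 0.0796). The other called members were PDCD4, a translation repressor (0.85, adjusted p = 0.0425), and the stress sensor SESN1 (0.49, adjusted p = 0.0422). Leaving out DMSO replicate 1, 2 or 3 or BKM120 replicate 1 or 3 took the count of risen members to 2 each time. PDCD4, which kept its call under 11 of 22 alternatives, missed without BKM120 replicates 1 or 3 or DMSO replicates 1, 2 or 3 or JQ1 replicates 1, 2 or 3 (from 0.60 to 0.95, adjusted p from 0.0512 to 0.278), and with limma-voom, no expression filter or thinned counts (adjusted p from 0.0545 to 0.0770). SESN1, with 13 of 23, missed without BKM120 replicates 1, 2 or 3 or DMSO replicates 1, 2 or 3 (from 0.44 to 0.54, adjusted p from 0.0637 to 0.129), and with DESeq2, library totals, no expression filter or thinned counts (adjusted p from 0.0577 to 0.0793). MTOR itself differed by -0.17 (adjusted p = 0.597) and RPTOR by 0.38 (adjusted p = 0.377).

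Autophagy and lysosome genes gave 5 rises and 2 falls among 59 tested, beside 4.07% and 4.14% of all tested genes. The list's median was 0.039 against 0.00019 over all tested genes. The risen genes were ULK1, its partners ATG13 (0.53, adjusted p = 0.0112) and RB1CC1, also called FIP200 (0.47, 0.00731), the lipid reader WIPI2 (0.48, 0.0115) and ATG7, the enzyme that activates the ubiquitin-like conjugation (0.49, 0.0324). ATG101, a further partner of ULK1 and ATG13, was at 27.7, 31.6 and 28.99 CPM in DMSO and 21.1, 20.4 and 16.0 CPM in BKM120 (log2 fold change -0.61 ± 0.13 (SE), adjusted p = 0.00283), but its counts match those of an overlapping identifier to within 5%, so which of them fell is uncertain. GABARAPL2, a membrane-anchored ubiquitin-like protein, fell by 0.39 on the log2 scale (adjusted p = 0.0121). Leaving out DMSO replicate 1, 2 or 3 or BKM120 replicate 1 left 3, 2, 3 and 3 risen members. Single calls were lost for ATG13 without DMSO replicate 1 (0.52, adjusted p = 0.0510) or without DMSO replicate 3 (0.49, adjusted p = 0.0555), for RB1CC1 without BKM120 replicate 1 (0.40, adjusted p = 0.0682) or without DMSO replicate 2 (0.41, adjusted p = 0.0528), for WIPI2 without BKM120 replicate 2 or DMSO replicates 1 or 2 (from 0.38 to 0.46, adjusted p from 0.0517 to 0.0703) and for GABARAPL2 without BKM120 replicates 1 or 3 or DMSO replicate 1 (from -0.36 to -0.31, adjusted p from 0.0769 to 0.112). Fallen members numbered 4 without 18DS replicate 2. TFEB, the lysosome gene regulator that mTORC1 holds in the cytoplasm, differed by -0.33 (adjusted p = 0.674).

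Sterol synthesis and uptake genes gave 7 falls and 1 rise among 28 tested, beside 4.14% and 4.07% of all tested genes. INSIG1, the sterol-sensing brake on SREBP processing and itself an SREBP target, was at 146, 139 and 135 CPM in DMSO and 72.9, 81.4 and 86.4 CPM in BKM120, a 1.75-fold fall (log2 fold change -0.81 ± 0.080 (SE), adjusted p = 8.70e-09). HMGCS1, which makes the precursor of mevalonate, was at 40.8, 38.8 and 34.8 CPM in DMSO and 22.4, 26.0 and 16.2 CPM in BKM120 (log2 fold change -0.82 ± 0.13 (SE), adjusted p = 8.61e-05). No BKM120 library reached the lowest DMSO library in either. MSMO1, a sterol demethylating oxidase, fell 1.599-fold (adjusted p = 0.00101), and SQLE, a rate-limiting enzyme of the pathway, fell as well (-0.57, adjusted p = 0.0218). The 1 risen member, MYLIP, encodes the ubiquitin ligase IDOL and was at 12.2, 13.5 and 11.3 CPM in DMSO and 19.96, 20.2 and 20.8 CPM in BKM120 (log2 fold change 0.72 ± 0.15 (SE), adjusted p = 0.00150). The list's median was -0.12, and 20 members did not pass, among them FDFT1 (0.028), LSS (-0.14) and SREBF2 (-0.064).

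The sterol element CACNCCAC was in 7.57% of tested genes with a promoter window and in 5 of the 22 sterol genes with one. It was in 1 of 3 fallen genes of that list with a window, INSIG1, and in 4 of 18 that did not pass. HMGCS1 held no match. The INSIG1 match, the capitals below, reads on the opposite strand and starts 208 bases before the start, within chr7:155297628-155297727 on the plus strand (RefSeq, GRCh38.p14).
INSIG1: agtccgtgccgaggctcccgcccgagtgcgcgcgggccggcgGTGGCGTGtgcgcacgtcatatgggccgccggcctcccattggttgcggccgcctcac

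Fatty acid synthesis genes gave 5 falls and no rise among 14 tested, beside 4.14% and 4.07% of all tested genes. The list's median was -0.27. SCD, the stearoyl-CoA desaturase, was at 287, 240.1 and 246 CPM in DMSO and 167, 186 and 159 CPM in BKM120 (log2 fold change -0.60 ± 0.11 (SE), adjusted p = 0.00257). MID1IP1, an activator of acetyl-CoA carboxylase, was at 57.7, 51.2 and 53.3 CPM in DMSO and 36.7, 36.9 and 32.9 CPM in BKM120 (log2 fold change -0.61 ± 0.11 (SE), adjusted p = 0.000282). Both were lower in every BKM120 library. FASN, the fatty acid synthase, fell 1.25-fold (adjusted p = 0.00475), ACSL4, which activates polyunsaturated fatty acids, 1.56-fold (adjusted p = 0.0200) and ACLY, which makes cytosolic acetyl-CoA, 1.32-fold (adjusted p = 0.0240). The count was 3 without DMSO replicate 1, BKM120 replicate 1 or BKM120 replicate 3: ACLY missed without BKM120 replicates 1 or 3 or DMSO replicate 1 (from -0.38 to -0.24, adjusted p from 0.110 to 0.206), and ACSL4 without BKM120 replicates 1 or 3 or DMSO replicates 1 or 2 (from -0.64 to -0.54, adjusted p from 0.0537 to 0.0966). SREBF1 differed by 0.00 (adjusted p = 0.986).

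**Figure D3:**
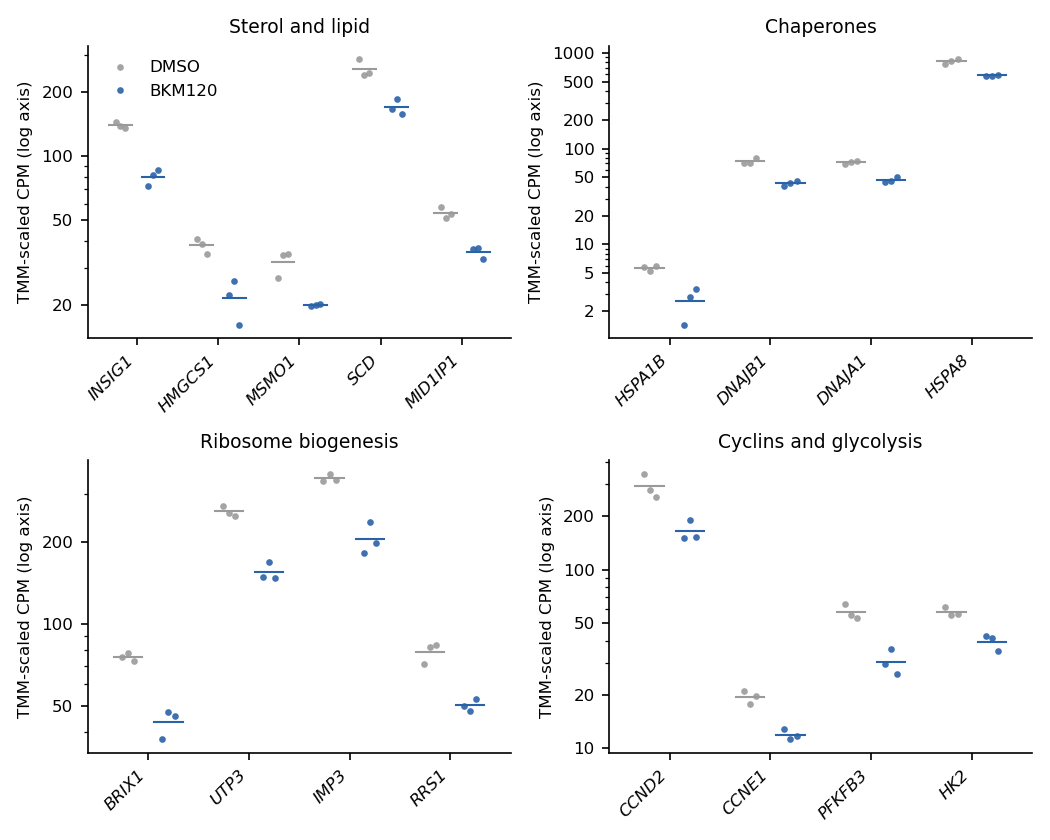
TMM-scaled CPM (log axis) of genes that fell, one point per library and a bar at the group mean, DMSO in grey and BKM120 in blue, in 4 panels: sterol and lipid genes, chaperones, ribosome biogenesis factors, and cyclins with glycolysis genes. In each of the 17 genes the 3 BKM120 points lie below the 3 DMSO points, as for INSIG1, whose lowest DMSO point is at 135 CPM and highest BKM120 point at 86.4 CPM.

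In glycolysis, 3 of 30 tested genes fell and 1 rose, beside 4.14% and 4.07% of all tested genes. The list's median was -0.053. PFKFB3, which makes the activator of phosphofructokinase, was at 64.5, 55.9 and 53.8 CPM in DMSO and 29.6, 36.2 and 26.1 CPM in BKM120, a 1.89-fold fall (log2 fold change -0.92 ± 0.12 (SE), adjusted p = 1.83e-06). HK2, the inducible hexokinase, was at 62.01, 55.9 and 56.6 CPM in DMSO and 42.7, 41.2 and 34.9 CPM in BKM120 (log2 fold change -0.55 ± 0.11 (SE), adjusted p = 0.00108). PGK1, a lower glycolytic enzyme, fell 1.26-fold (adjusted p = 0.00741), missing without BKM120 replicate 1 (-0.30, adjusted p = 0.0601) and BKM120 replicate 3 (-0.31, adjusted p = 0.0501). TKT, the pentose phosphate transketolase, rose 1.26-fold (adjusted p = 0.0166) and missed without BKM120 replicates 1 or 3 or DMSO replicates 1 or 2 (from 0.24 to 0.34, adjusted p from 0.0592 to 0.167). Library totals alone, or dropping BKM120 replicate 2, gave 5 falls. The glucose transporter gene SLC2A1 (-0.45, adjusted p = 0.161) and LDHA (-0.15, 0.226) did not pass. Nor did GAPDH (0.32, adjusted p = 0.0617) and PGD (0.30, 0.104), which pointed up.

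Ribosome biogenesis factors fell in 22 of 91 cases and rose in none, beside 4.14% and 4.07% of all tested genes. The list's median was -0.18. BRIX1, a large-subunit assembly factor, was at 75.6, 78.0 and 73.0 CPM in DMSO and 37.5, 47.4 and 45.6 CPM in BKM120 (log2 fold change -0.79 ± 0.10 (SE), adjusted p = 2.56e-06). UTP3 and IMP3, of the small-subunit processome, fell 1.68-fold (log2 fold change -0.74 ± 0.082 (SE), adjusted p = 8.27e-08) and 1.67-fold (log2 fold change -0.74 ± 0.083 (SE), adjusted p = 1.10e-07). RRS1, which places 5S RNA in the large subunit, was at 71.3, 82.3 and 83.5 CPM in DMSO and 49.7, 47.8 and 53.01 CPM in BKM120 (log2 fold change -0.65 ± 0.11 (SE), adjusted p = 9.78e-05). GNL2 and RRP1B fell 1.40-fold and 1.43-fold (adjusted p = 0.00131 and 0.000177). The BKM120 libraries were below the DMSO libraries in all 6. The count was 14 without DMSO replicate 1 and 12 without BKM120 replicate 3. The E-box CACGTG, bound by MYC with MAX, was in 13.0% of tested genes with a promoter window, in 8 of 17 fallen factors with one and in 25 of 62 that did not pass.

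Of the cytosolic ribosomal protein genes, the building blocks of the ribosome itself, 13 of 78 rose and none fell. Over all tested genes the shares were 4.07% and 4.14%. The ribosomal protein list's median was 0.092 and its largest change 0.43. RPS9 was at 652, 832 and 857 CPM in DMSO and 1032, 941 and 1093 CPM in BKM120 (log2 fold change 0.39 ± 0.084 (SE), adjusted p = 0.00303). DMSO replicate 1 was the lowest library. Library totals alone gave 7 higher and 3 lower, and leaving out DMSO replicates 1 or 2 left 4 and 7 risen members. Leaving out BKM120 replicates 1 or 3 left 4 each, while 6 members were lower once BKM120 replicate 2 was dropped and 4 once 18DS replicate 2 was. Ribosomal protein genes have many near-identical pseudogenes, so reads could be divided between copies.

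MAT2A, which makes the methyl donor S-adenosylmethionine, led the nucleotide, polyamine and one-carbon list. There 5 of 29 tested genes fell and 1 rose, beside 4.14% and 4.07% of all tested genes. MAT2A was at 163, 151 and 159 CPM in DMSO and 91.0, 97.1 and 91.3 CPM in BKM120, a 1.697-fold fall (log2 fold change -0.76 ± 0.078 (SE), adjusted p = 1.62e-08). The polyamine enzymes ODC1 (-0.30, adjusted p = 0.0162), AMD1 (-0.28, 0.0170) and SMS (-0.32, 0.0415) and the pyrimidine enzyme UMPS (-0.37, 0.0145) fell less. The fallen count was 2, 3, 1 and 2 without DMSO replicate 1, DMSO replicate 2, BKM120 replicate 1 and BKM120 replicate 3. AMD1 missed without BKM120 replicate 1 (-0.26, adjusted p = 0.0954) or without DMSO replicate 1 (-0.23, adjusted p = 0.114), ODC1 without BKM120 replicates 1 or 3 or DMSO replicate 1 (from -0.29 to -0.23, adjusted p from 0.0719 to 0.121), and UMPS without BKM120 replicates 1 or 3 or DMSO replicates 2 or 3 (from -0.35 to -0.32, adjusted p from 0.0561 to 0.0910). SMS kept its call under 13 of 23 alternatives, missing without BKM120 replicates 1 or 3 or DMSO replicates 1 or 2 or JQ1 replicates 1, 2 or 3 (from -0.32 to -0.27, adjusted p from 0.0551 to 0.187), and with a non-robust dispersion or upper-quartile factors (adjusted p from 0.0510 to 0.0580). MAT2A kept its call throughout.

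Amino acid supply genes controlled by ATF4 gave 2 rises and 3 falls among 43 tested, beside 4.07% and 4.14% of all tested genes. The list's median was -0.029. SLC38A2, a neutral amino acid transporter, was at 44.9, 48.2 and 42.3 CPM in DMSO and 68.7, 58.8 and 70.3 CPM in BKM120 (log2 fold change 0.54 ± 0.10 (SE), adjusted p = 0.000542). SLC1A5, the glutamine transporter, was at 304, 205 and 220.4 CPM in DMSO and 159.9, 161 and 141 CPM in BKM120 (log2 fold change -0.66 ± 0.13 (SE), adjusted p = 0.00498), and GPT2, a mitochondrial alanine transaminase, fell 1.45-fold (adjusted p = 0.00618). The cystine transporter gene SLC7A11 rose by 0.70 (adjusted p = 0.0433), a call kept under 12 of 23 alternatives. It was lost without BKM120 replicates 1, 2 or 3 or DMSO replicates 1, 2 or 3 or JQ1 replicate 2 (from 0.64 to 0.77, adjusted p from 0.0517 to 0.130), and with DESeq2, a non-robust dispersion, library totals or thinned counts (adjusted p from 0.0516 to 0.0800). TRIB3, given above, also fell, and library totals alone gave 5 falls. ATF4 itself differed by -0.088 (adjusted p = 0.516) and ASNS by -0.052 (adjusted p = 0.867).

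Heat shock chaperones fell in 10 of 39 cases and rose in 2, beside 4.14% and 4.07% of all tested genes. DNAJB1, an HSP40 co-chaperone, was at 70.5, 70.7 and 79.1 CPM in DMSO and 40.4, 44.0 and 46.0 CPM in BKM120, a 1.69-fold fall (log2 fold change -0.76 ± 0.093 (SE), adjusted p = 7.54e-07). HSPA8, the constitutive HSP70, was at 766, 832 and 867 CPM in DMSO and 578, 578 and 590.5 CPM in BKM120 (log2 fold change -0.50 ± 0.069 (SE), adjusted p = 6.19e-06). DNAJA1, another HSP40, was at 68.8, 72.5 and 73.8 CPM in DMSO and 45.2, 45.8 and 50.5 CPM in BKM120 (log2 fold change -0.60 ± 0.098 (SE), adjusted p = 7.64e-05). All 3 were lower in each BKM120 library. HSPA1B, an inducible HSP70, was at 5.74, 5.32 and 5.998 CPM in DMSO and 1.45, 2.81 and 3.41 CPM in BKM120 (log2 fold change -1.16 ± 0.27 (SE), adjusted p = 0.00553), missed without BKM120 replicate 1 (-0.88, adjusted p = 0.0654) and is nearly identical to HSPA1A, so its reads are uncertain. Leaving out DMSO replicates 1 or 3 left 6 fallen members each time, and leaving out BKM120 replicates 1 or 3 left 4 and 5. The risen members, DNAJC7 and AHSA1, numbered 0, 1, 0 and 0 without DMSO replicates 1 or 2 and BKM120 replicates 1 or 3. HSP90AA1 (-0.16, adjusted p = 0.158) and HSPH1 (-0.11, 0.475) did not pass. The heat shock motif GAANNTTC was in 6.31% of tested genes with a promoter window, in 5 of 9 fallen chaperones with one (CHORDC1, DNAJA1, DNAJB1, HSPA1B and HSPA8) and in 7 of 24 that did not pass.

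Genes of the endoplasmic reticulum, on which antibody-secreting cells depend, gave 4 rises and 1 fall among 41 tested, beside 4.07% of all tested genes that rose and 4.14% that fell. PPP1R15A (GADD34), which reverses translation arrest under stress, was at 13.1, 14.8 and 14.995 CPM in DMSO and 32.7, 23.6 and 28.4 CPM in BKM120 (log2 fold change 0.98 ± 0.14 (SE), adjusted p = 1.32e-05). EIF2AK3, the stress sensor PERK, was at 67.0, 73.0 and 68.6 CPM in DMSO and 106, 85.0 and 112 CPM in BKM120 (log2 fold change 0.54 ± 0.10 (SE), adjusted p = 0.00101). Both were higher in every BKM120 library. The chaperone genes HSPA5 (-0.042, adjusted p = 0.768) and HSP90B1 (-0.12, 0.349) and the regulator XBP1 (-0.15, 0.267) did not pass. Without BKM120 replicate 1 the risen count was 2. The fallen gene was DNAJC3, an ER co-chaperone (-0.30, adjusted p = 0.0453), which kept its call under 7 of 23 alternatives. DNAJC3 missed without 18DS replicate 3 or BKM120 replicates 1, 2 or 3 or DMSO replicates 1 or 3 or JQ1 replicates 1, 2 or 3 (from -0.31 to -0.26, adjusted p from 0.0510 to 0.176), and with an expression filter of 1 CPM in 3 libraries, DESeq2, limma-voom, no expression filter, thinned counts or upper-quartile factors (adjusted p from 0.0509 to 0.0888). Fallen members numbered 3 without 18DS replicate 2 or from the 6 libraries alone, 2 with library totals and 0 with upper-quartile factors or DESeq2.

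Immediate early genes and ERK feedback genes gave 6 rises and 5 falls among 35 tested, beside 4.07% and 4.14% of all tested genes. MYC was at 28.6, 32.2 and 27.2 CPM in DMSO and 56.5, 47.4 and 50.1 CPM in BKM120, a 1.75-fold rise (log2 fold change 0.81 ± 0.13 (SE), adjusted p = 5.01e-05). JUN, an AP-1 subunit, was at 27.2, 25.8 and 28.0 CPM in DMSO and 41.2, 38.8 and 41.0 CPM in BKM120 (log2 fold change 0.58 ± 0.10 (SE), adjusted p = 0.000199). The groups did not overlap for either gene. NR4A2, an orphan nuclear receptor, rose from 0.884, 0.644 and 0.833 CPM to 2.41, 3.99 and 3.41 CPM (log2 fold change 2.03 ± 0.45 (SE), adjusted p = 0.00284). DUSP7, a phosphatase that inactivates ERK, was at 19.1, 19.5 and 23.5 CPM in DMSO and 8.85, 10.04 and 7.37 CPM in BKM120, a 2.34-fold fall (log2 fold change -1.23 ± 0.18 (SE), adjusted p = 1.60e-05), and DUSP2, another MAP kinase phosphatase, fell 1.59-fold (adjusted p = 0.0108; without BKM120 replicate 1, -0.63, adjusted p = 0.0589). Fallen members numbered 3, 2 and 3 when DMSO replicate 3, BKM120 replicate 1 or BKM120 replicate 2 was dropped. Among the MAX network and BET-responsive genes, 4 of 21 rose and 1 fell: MYC and MXI1 rose, MAX, the partner of both, fell from 147, 136 and 147 CPM to 109, 116 and 102 CPM (log2 fold change -0.39 ± 0.092 (SE), adjusted p = 0.00658; without BKM120 replicate 3, -0.34, adjusted p = 0.0546), SERTAD2, a cell-cycle cofactor, rose by 0.46 (adjusted p = 0.0412; missed without BKM120 replicates 2 or 3 or DMSO replicates 1, 2 or 3 or JQ1 replicates 1, 2 or 3 (from 0.37 to 0.53, adjusted p from 0.0510 to 0.214), and with DESeq2, library totals, limma-voom or no expression filter (adjusted p from 0.0524 to 0.0811)), and BRD3, a BET protein, rose by 0.58 (adjusted p = 0.0155; without DMSO replicate 1, 0.51, adjusted p = 0.0997, and without BKM120 replicate 1, 0.53, adjusted p = 0.0835). HEXIM1, an inhibitor of the elongation factor P-TEFb used as a marker of BET inhibition, was at 33.6, 30.3 and 30.5 CPM in DMSO and 30.8, 30.9 and 30.4 CPM in BKM120, with a 95% interval of -0.28 to 0.21 for its log2 fold change.

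Among 36 tested plasma cell and myeloma genes, 5 rose and 5 fell, beside 4.07% and 4.14% of all tested genes. PIM2, a survival kinase of myeloma, was at 2765, 2989.8 and 2915 CPM in DMSO and 4405, 4314 and 4345 CPM in BKM120 (log2 fold change 0.59 ± 0.068 (SE), adjusted p = 1.52e-07), and its relative PIM1 at 11.5, 9.50 and 11.5 CPM and 21.6, 24.1 and 18.1 CPM (log2 fold change 0.98 ± 0.18 (SE), adjusted p = 0.000517). PIM3, the third family member, moved the other way, from 246, 246 and 251 CPM to 155, 184 and 181 CPM (log2 fold change -0.52 ± 0.078 (SE), adjusted p = 2.58e-05). For all 3 kinases the groups did not overlap. IRF4, the transcription factor on which myeloma cells depend, was at 301, 317 and 292 CPM in DMSO and 245, 231 and 225 CPM in BKM120 (log2 fold change -0.38 ± 0.072 (SE), adjusted p = 0.000668). PRDM1, the plasma cell regulator BLIMP1, differed by 0.055 with a 95% interval of -0.11 to 0.22. The risen count was 3 without DMSO replicate 1 or BKM120 replicate 3.

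In the list of Krüppel-like factors and lymphocyte trafficking genes, KLF2 was the 1 member of 24 that rose, and 3 fell. Of all tested genes, 4.07% rose and 4.14% fell. CCR1, a chemokine receptor of myeloma cells, was at 97.5, 85.0 and 91.1 CPM in DMSO and 38.8, 46.4 and 43.3 CPM in BKM120, a 2.13-fold fall (log2 fold change -1.09 ± 0.098 (SE), adjusted p = 1.22e-09). KLF16 fell from 15.8, 15.9 and 13.3 CPM to 10.3, 7.53 and 5.57 CPM (log2 fold change -0.94 ± 0.19 (SE), adjusted p = 0.00150). The other fallen member, KLF13 (-0.29, adjusted p = 0.0444), kept its call under 10 of 23 alternatives. CXCR4 (0.18, adjusted p = 0.285) and KLF6 (-0.14, 0.512) did not pass. In the list of NF-kB and cytokine genes, IL6ST and BIRC2, an inhibitor of apoptosis (0.39, adjusted p = 0.00427), rose among 25 tested, and 3 fell: CISH, a feedback inhibitor of cytokine receptors, from 8.69, 4.35 and 5.498 CPM to 3.06, 3.10 and 1.62 CPM (log2 fold change -1.24 ± 0.32 (SE), adjusted p = 0.0124), the NF-kB subunit RELA (-0.43, 0.00484) and STAT3 (-0.52, 0.0286). Without DMSO replicate 1 CISH was at -0.90, adjusted p = 0.163 and STAT3 at -0.34, adjusted p = 0.199, and without BKM120 replicate 3 CISH was at -1.01, adjusted p = 0.0965, STAT3 at -0.37, adjusted p = 0.159 and RELA at -0.37, adjusted p = 0.0503.

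Tubulin genes were examined because BKM120 is known to bind tubulin as well as PI3K. Of 12 tested members, which include the tubulin-mRNA regulator TTC5, 2 fell and none rose, beside 4.14% and 4.07% of all tested genes. The list's median was -0.20. TUBA4A was at 261, 254 and 245 CPM in DMSO and 173, 197 and 179 CPM in BKM120 (log2 fold change -0.47 ± 0.074 (SE), adjusted p = 5.27e-05). TUBA1C fell 1.30-fold (adjusted p = 0.00257), but its counts match an overlapping identifier to within 5%. TUBB was at 1180.0, 1207 and 1184 CPM in DMSO and 1048, 1134 and 970.3 CPM in BKM120, with no overlap and an adjusted p of 0.0938, and TUBA1A differed by -0.58 (adjusted p = 0.0502). TUBB passed without BKM120 replicate 2 (-0.24, adjusted p = 0.0285) and with library totals. TUBA1A passed without BKM120 replicate 2 (-0.77, adjusted p = 0.00266) or without DMSO replicate 2 (-0.73, adjusted p = 0.00359), and with DESeq2, DESeq2 size factors, limma-voom, library totals, a non-robust dispersion or no expression filter. The alpha tubulin genes encode near-identical proteins, and whether reads near the 3′ end were divided between them was not tested. Library totals alone called 4 members lower, as did DESeq2, limma-voom and a non-robust dispersion, and 5 were lower without BKM120 replicate 2.

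Other large falls in genes averaging 5 CPM or more, groups apart, lay outside these lists. Without these limits, the log2 fold changes of called genes reached -5.03. WT1, the Wilms tumour transcription factor, was at 12.8, 5.15 and 8.16 CPM in DMSO and 1.29, 2.21 and 1.80 CPM in BKM120, a 4.89-fold fall (log2 fold change -2.29 ± 0.34 (SE), adjusted p = 3.05e-05). Its DMSO replicate 1 was well above the other DMSO libraries, and the lowest DMSO library still stood above every BKM120 library. GFI1, a repressor of blood cell differentiation genes, was at 32.5, 25.8 and 26.5 CPM in DMSO and 9.82, 14.8 and 14.6 CPM in BKM120 (log2 fold change -1.12 ± 0.16 (SE), adjusted p = 9.76e-06). CYP26A1, which degrades retinoic acid, was at 10.8, 9.66 and 7.83 CPM in DMSO and 2.74, 3.40 and 4.85 CPM in BKM120 (log2 fold change -1.37 ± 0.27 (SE), adjusted p = 0.000939). GLIS2, a zinc finger factor, fell 2.41-fold (adjusted p = 6.46e-06), LRFN1, an adhesion protein, 2.34-fold (adjusted p = 1.36e-05) and UBE2QL1, of the ubiquitin-conjugating enzyme family, by a log2 fold change of -1.12 (adjusted p = 0.0106). The UBE2QL1 call was lost without DMSO replicate 1 (-1.05, adjusted p = 0.0546), DMSO replicate 3 (-1.01, adjusted p = 0.0541) or BKM120 replicate 1 (-0.84, adjusted p = 0.105). The pseudogenes HNRNPUP1 and SNRPGP10 also fell, 2.68-fold and 2.61-fold, and may hold reads of their parent genes. SNRPGP10 missed without DMSO replicate 1 (-0.94, adjusted p = 0.0615).

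**Figure D4:**
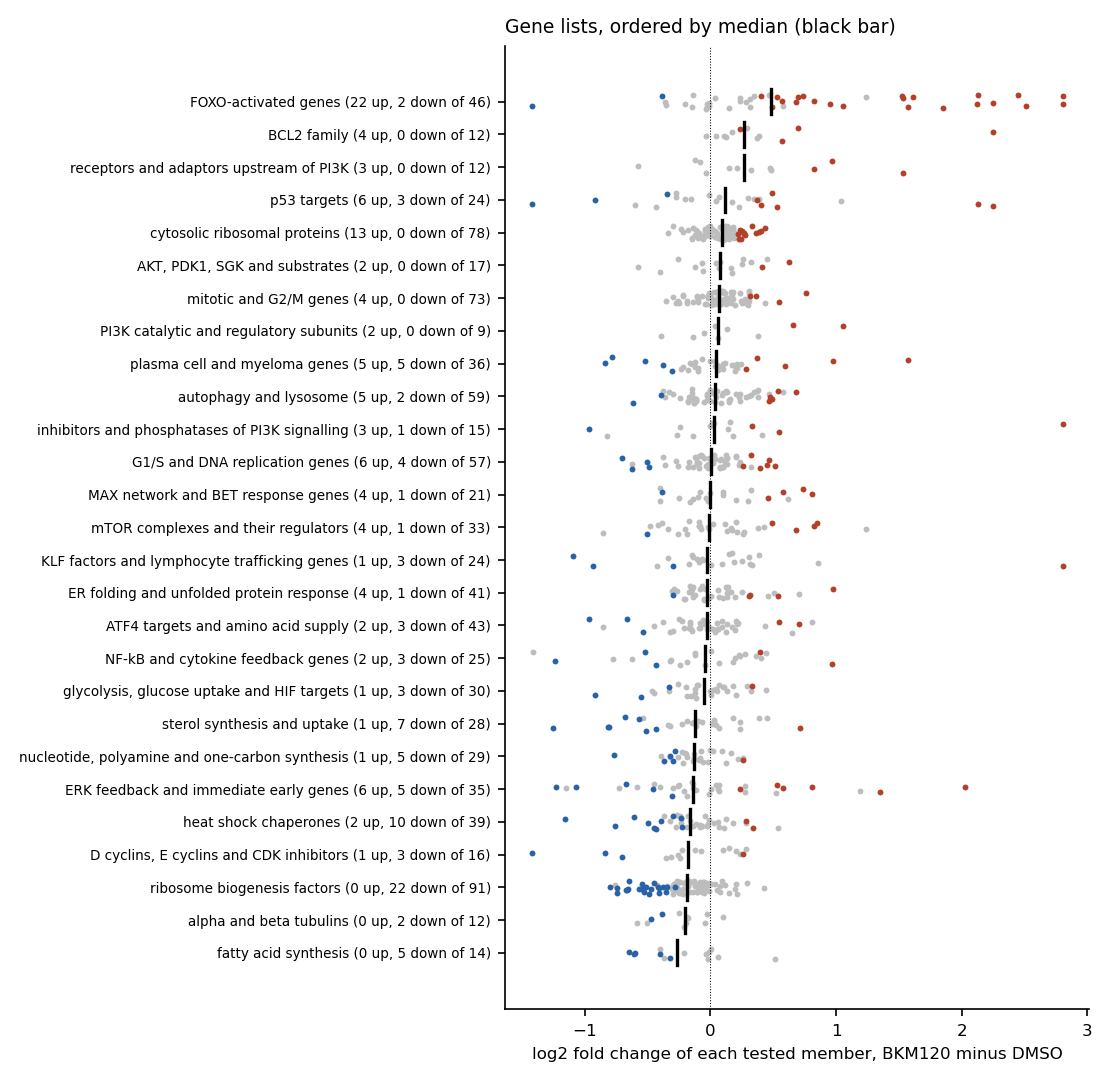
Log2 fold change of BKM120 over DMSO (horizontal axis) for each tested member of 27 gene lists (rows), with risen members in red, fallen ones in blue, the rest in grey and a black bar at the list's median. The FOXO-activated list has the highest median, 0.48, and the fatty acid synthesis list the lowest, -0.27.

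The same genes were read under JQ1 and 18DS, each at 250 nM, a lower dose than the 1 µM of BKM120. Values are given side by side without a test, since doses differ and all treatments share the DMSO libraries. KLF2 was at 49.5 ± 9.67 CPM (mean ± SD, n = 3) under JQ1 and 130.2 ± 27.5 CPM under 18DS. For IRS2 the levels were 10.7 ± 1.84 and 24.4 ± 2.23 CPM, for TP53INP1 7.02 ± 1.38 and 14.1 ± 2.77 CPM and for BBC3 4.01 ± 0.311 and 7.39 ± 1.36 CPM. In each of these 4 genes the 18DS mean lay above the JQ1 mean. ST3GAL6 was at 25.2 ± 0.394 CPM under JQ1 and 36.2 ± 0.722 CPM under 18DS. MYC was at 2.54 ± 0.343 and 2.51 ± 1.12 CPM. INSIG1 was at 338 ± 8.24 CPM under JQ1 and 206 ± 7.18 CPM under 18DS. HEXIM1 was at 99.4 ± 11.2 CPM under JQ1 and 122 ± 19.9 CPM under 18DS.

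**Figure D5:**
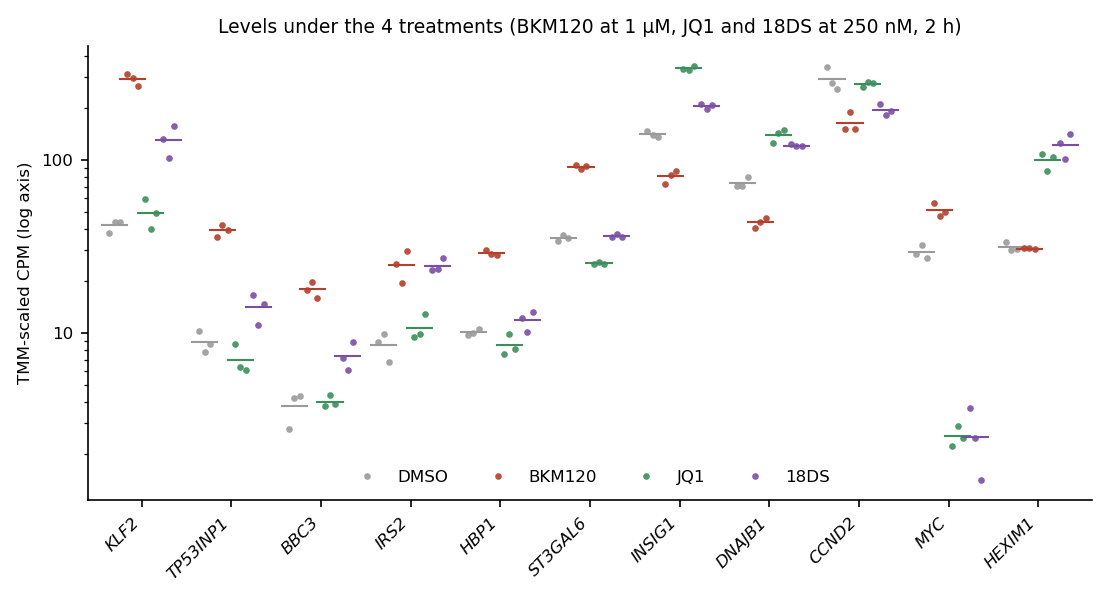
TMM-scaled CPM (log axis) of 11 genes under DMSO, BKM120 (1 µM), JQ1 (250 nM) and 18DS (250 nM), one point per library and a bar at the mean of 3. KLF2 is highest under BKM120 and next under 18DS, and MYC is raised under BKM120 and near 2.5 CPM under JQ1 and 18DS.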

How the data were processed

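Gene counts per library (6 BKM120 and DMSO libraries of 12) were deposited by the authors as raw counts for Ensembl identifiers; nothing was normalized in them. Per the submitters' processing notes, the tools were HISAT2 2.1.0 with the hg19 build, cutadapt 1.7, featureCounts (Subread), SAMtools 1.9, limma, FastQC 0.11.5 and bcl2fastq 2.17.1.14, with no order given; the strand setting is not given in the sources used here. No molecular identifiers are named, so PCR copies can add to counts. Per the labels, QuantSeq libraries were made from 500 ng of RNA and read as 75-base single ends. With 5563788 to 6883854 counts a library, genes near 1 CPM rest on few reads.

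Counts were tested with edgeR 4.0.16 (R 4.3.3) quasi-likelihood models over all 12 libraries, which share 1 estimate of spread (8 residual degrees of freedom), with filterByExpr (minimum count 10), TMM factors and Benjamini-Hochberg adjustment; a call is an adjusted p under 0.05. A log2 fold change is BKM120 minus DMSO, and its SE is the fold change divided by the square root of the F statistic. A p-value sets a gene's difference against the spread between these cultures, estimated over all 12 libraries and with information shared across genes. The script was tested on simulated data. Symbols came from a gene name table (51662 of 63152 identifiers matched; 8 of 1107 list entries had no single identifier), and promoter windows from RefSeq (GRCh38.p14). No gene coordinates of hg19 were used here.

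Genes named were the 4 markers, the 12 largest changes in each direction (mean of at least 5 CPM, no overlap between groups, a symbol), up to 6 called members of each list and a fixed set of pathway genes; other genes named, such as list members given as not passing (MTOR, HSPA5) or needed to complete a count (ATG7, SQLE), were chosen after their values were seen. Some genes that the rule names are not reported here. The members and lists were chosen with earlier results of these data known. Other settings tried were scaling by totals, by upper quartiles or by DESeq2 1.42.0 size factors, the DESeq2 test, limma 3.58.1 voom, 2 other filters, non-robust dispersion, 6 libraries only, a replicate block, thinning, and leaving out each library.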

Additional observations from a re-analysis of the deposited data

How the results depend on the processing

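Of 132 called named genes, 85 kept their direction and call under every alternative that gave a value, and no result changed sign while called. Total calls ranged from 482 to 1564 when 1 library was left out (risen 223 to 731, fallen 259 to 833); the cause was not tested. Under the other settings they ranged from 933 (DESeq2, of which 843 were shared with the 1082) to 1248 (library totals alone, 985 shared), with 1074 by limma-voom, 1241 from the 6 libraries alone and 1078 after thinning to the smallest library. DESeq2 gave no adjusted p for 115 of the 1082 called genes, PIK3IP1, CCNG2, NR4A2 and WT1 among them, and these are not counted as lost. With the replicate block, 1042 genes were called, 531 higher and 511 lower; of the named genes, CDKN2A, DNAJC3, KLF13 and SMS lost their calls (adjusted p up to 0.0609). Deviations of same-numbered DMSO and BKM120 libraries had correlations of 0.00831, -0.0537 and 0.0422, and not every library correlated best with its own number. With 3 libraries a group, these values cannot tell whether same-numbered cultures shared a day or batch. Depth limits the low genes most: 2.75% of the 4394 lowest were called, and PIK3IP1, CCNG2 and BCL6 rest on a few CPM in DMSO.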

Other observations

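Genes outside the lists, named after their values were seen, also changed within 2 hours of BKM120. CREBRF, a regulator of CREB3 family factors, rose by 1.97 (adjusted p = 0.000135) and RHEBL1, a relative of the mTORC1 activator RHEB, by 1.94 (adjusted p = 2.64e-05), both from under 3 CPM. The chromatin genes EZH1, a PRC2 methyltransferase, and JMJD1C, a demethylase family member, rose by 0.84 (adjusted p = 0.00101) and 0.73 (adjusted p = 0.000841). CFLAR, the caspase-8 inhibitor cFLIP, was at 37.999, 39.9 and 36.3 CPM in DMSO and 63.1, 62.01 and 54.3 CPM in BKM120 (log2 fold change 0.65 ± 0.100 (SE), adjusted p = 3.27e-05). IL10RA, the interleukin 10 receptor chain (0.84, adjusted p = 1.32e-05), CYTIP, a lymphocyte adhesion regulator (0.87, 1.47e-05), PNRC1, a nuclear receptor cofactor (0.97, 9.44e-06) and NR3C1, the glucocorticoid receptor (0.47, 0.00158), also rose. The nuclear RNA NEAT1 was at 269, 193 and 213 CPM in DMSO and 354, 395 and 347 CPM in BKM120 (log2 fold change 0.70 ± 0.12 (SE), adjusted p = 0.00262).

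Among falls, TFRC, the transferrin receptor, was at 94.7, 82.6 and 79.1 CPM in DMSO and 51.4, 60.1 and 56.2 CPM in BKM120 (log2 fold change -0.61 ± 0.096 (SE), adjusted p = 4.98e-05). CDC25A, the phosphatase that activates CDK2, was at 44.0, 34.5 and 43.8 CPM in DMSO and 23.7, 24.1 and 27.5 CPM in BKM120 (log2 fold change -0.70 ± 0.12 (SE), adjusted p = 0.000128). CGAS, the cytosolic DNA sensor, was at 32.1, 25.8 and 25.3 CPM in DMSO and 13.2, 14.6 and 11.7 CPM in BKM120 (log2 fold change -1.07 ± 0.19 (SE), adjusted p = 0.000915). ID2, an inhibitor of E proteins (-0.73, adjusted p = 7.67e-05), MEF2D (-0.70, 5.02e-06), the nuclear receptor NR2F6 (-0.94, 1.44e-06) and RGS16, which shortens G protein signals (-0.89, 1.02e-05), fell as well. All of the genes in these paragraphs were free of overlap between groups and kept their call under every alternative that gave a value.

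Of 37 tested mitochondrially encoded genes, 11 rose and none fell, beside 4.07% and 4.14% of all tested genes. Their median log2 fold change was 0.25. ENSG00000272060, which has no symbol in the tables used, took more counts than any other identifier and was at 28532, 27429 and 27876 CPM in DMSO and 40706, 40777 and 38056 CPM in BKM120 (log2 fold change 0.51 ± 0.079 (SE), adjusted p = 9.19e-05).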
